A study of Homo sapiens with 6 samples.

Results

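Calcium channel and neuronal transport genes were examined in RNA from human cervical cancer cell lines. By their labels, the transcription factor p63 had been lowered in 1 line and raised in the other. The group held 5 genes, CACNA2D1, CADPS2, CACNA1H, KIF1A and APBA2, of 10661 genes with a row in at least 1 of the 2 RNA tables. They had 6 transcript rows in each table, of 18583 different transcripts in all. The genes were selected on measured values of these same libraries: all 5 were higher in the ME-180 library labelled knockdown than in its control, and CACNA2D1 and CADPS2 were also higher with p63 overexpression in SiHa. The 2 ratios of each member are therefore given as a description, without a test.

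ME-180 and SiHa are established cervical carcinoma lines, and their cells were at passages 13-15. The ME-180 groups were a control, whose column carries the name plko, and a knockdown, whose column is named shp63. The SiHa groups were cells with a vector and cells that overexpressed p63. With 1 library per group there is no replicate and no test: differences compare single libraries, and the 95% intervals speak of counting error alone. The sources used here do not say whether the cells were clones, which promoter drove p63 or how long after its introduction RNA was taken.

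CACNA1H encodes a pore-forming subunit of the low-voltage-activated, T-type calcium channels. CACNA2D1 encodes an alpha2delta subunit, an auxiliary extracellular protein that brings high-voltage-activated calcium channels to the cell surface and is the binding site of gabapentin. The other members act on vesicles and cargo: KIF1A is a kinesin motor that carries synaptic vesicle precursors and dense core vesicles along axons, CADPS2 primes dense core vesicles for calcium-triggered release, and APBA2 (also known as Mint2 or X11-beta) is an adaptor that binds the amyloid precursor protein and the exocytosis protein Munc18. These genes are best known from neurons and endocrine cells. p63, encoded by TP63, directs the basal programme of squamous epithelium.

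The RNA tables held between 10046579 and 14207637 counts per library, summed over their rows, and levels are given as counts per 1000000 of that sum (CPM). The row of the delta N alpha transcript of TP63 (NM_001114980.1) had 5619 counts in ME-180 control cells and 6 in those labelled knockdown, with 7 in the SiHa vector library and 179 under overexpression. A gene was called higher or lower where log2(CPM + 1) differed by at least 1 (2-fold) and either library of the pair reached 1 CPM. By this rule 28.2% of 6783 genes were higher and 20.6% lower in the ME-180 library labelled knockdown. In SiHa, 0.572% of 6996 genes were higher and 0.743% lower with overexpression. Scaling by trimmed means moved the median log2 ratio of all ME-180 genes by -0.28 and the share of higher genes among those called from 57.8% to 47.6%, and kept the calls and directions of all 5 members in both lines. All 5 members were called higher in ME-180, and 2 of 5 were called higher and 0 lower in SiHa. Since the members were chosen from these contrasts, nothing is read from those counts.

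Cell type markers differed between the ME-180 libraries too. The summed level of 4 squamous markers (TP63, KRT5, KRT14 and KRT17) was 70952 CPM in the control and 35.8 CPM in the library labelled knockdown, and 4154 and 8924 CPM in the SiHa vector and overexpression libraries. Simple epithelial keratins, 2 of 3 with a row in ME-180 and 3 of 3 in SiHa, summed to 2710 and 131 CPM and to 2513 and 4566 CPM. Of 10 neuronal and neuroendocrine markers, 5 had a row in ME-180, with a sum of 39.1 CPM in the control and 56.0 CPM in the library labelled knockdown. NEFM alone went from 1.11 to 35.1 CPM, and the other 4 together from 37.9 to 20.9 CPM. In SiHa 5 had a row, with sums of 272 and 384 CPM, of which TUBB3 was 211 and 348 CPM and the other 4 together 60.7 and 35.8 CPM. Muscle markers, 4 of 4 with a row, summed to 5.18 and 31.4 CPM in ME-180 and to 8.31 and 7.38 CPM in SiHa. Fibroblast markers, 4 of 6 with a row in ME-180 and 5 of 6 in SiHa, summed to 128 and 71.1 CPM and to 28.4 and 22.0 CPM. COL1A1 carried both sums, and the other fibroblast markers together went from 1.02 to 18.9 CPM in ME-180 and from 5.14 to 7.82 CPM in SiHa. Leukocyte markers, 3 of 4 with a row in each table, summed to 1.48 and 3.78 CPM in ME-180 and to 98.3 and 104 CPM in SiHa, where CD14 made up most of the sum. In the library labelled knockdown SNAP25 and CD3E were at 0, and in the control PDGFRB and DES were. The part of these differences in the members' values was not tested. Lower TP63 and other differences between the ME-180 libraries cannot be told apart here. In bulk RNA, fewer cells that express a gene and less RNA per cell cannot be told apart.

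CACNA2D1, the alpha2delta subunit, was at 0 counts in the ME-180 control and was counted in the other 3 libraries. Its transcript NM_000722.2 had 0 counts in ME-180 control cells, 166 in those labelled knockdown, 42 with the SiHa vector and 205 with overexpression. Both manipulated libraries were thus above their own controls, although TP63 was low in one and raised in the other. In ME-180 the level went from 0 to 16.5 CPM (95% Poisson interval 14.1 to 19.2), at least 59.5-fold higher against a floor of 3 counts in the control library, with a lower 95% limit of 47.9 for the ratio. In SiHa it went from 2.96 CPM (2.13 to 3.996) to 15.0 CPM (13.0 to 17.2), a ratio of 5.07 (exact 95% interval 3.62 to 7.24). On the log2(CPM + 1) scale the differences were 4.13 and 2.01. CACNA2D1 stood 115th from the highest of 6783 genes in ME-180 and 4th of 6996 in SiHa.

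CADPS2, the vesicle priming factor, was higher in the same pair of libraries, at lower counts, and was the member whose calls were least secure. It had rows for 2 transcripts, which can share reads and are not independent. NM_001009571.3 had 9 counts in ME-180 control cells, 66 in those labelled knockdown, 30 with the SiHa vector and 124 with overexpression. NM_001167940.1 had 3, 55, 22 and 127 counts in the same order. Each row was thus higher in both manipulated libraries than in their controls, and the rows gave the same direction in both lines. For NM_001009571.3 the ratio was 7.89 (3.91 to 18.0) in ME-180 and 4.29 (2.86 to 6.62) in SiHa. For NM_001167940.1 it was 19.7 (6.40 to 98.5) in ME-180, from a control of 3 counts, and 5.99 (3.79 to 9.90) in SiHa. The log2(CPM + 1) differences of NM_001009571.3, the row with the higher summed level, were 2.05 and 1.69. With a pseudocount of 5 in place of 1 these became 0.99 and 0.98, just short of the 2-fold rule in both lines, and with a floor of 100 counts the gene was not considered in ME-180.

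The other 3 members were higher in the ME-180 library labelled knockdown and slightly lower, or not separable, with p63 overexpression in SiHa. KIF1A, the kinesin, had the highest log2(CPM + 1) ratio of the group in ME-180, 6.60. Its transcript NM_001244008.1 had 1 count in ME-180 control cells, 1055 in those labelled knockdown, 174 with the SiHa vector and 143 with overexpression. The ME-180 ratio was 1135, with an interval of 203 to 44855 because the control held 1 count, and KIF1A stood 5th from the highest of 6783 genes. In SiHa the ratio was 0.853 (0.679 to 1.07), an interval that includes 1. The 2 SiHa levels, 12.2 CPM (10.5 to 14.2) and 10.4 CPM (8.80 to 12.3), did not differ beyond counting error.

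CACNA1H, the T-type channel pore, was counted in all 4 libraries. NM_001005407.1 had 15 counts in ME-180 control cells, 897 in those labelled knockdown, 104 with the SiHa vector and 58 with overexpression. The library labelled knockdown was far above the other 3. The ME-180 ratio was 64.3 (38.8 to 115), from 1.39 to 89.3 CPM. In SiHa the level was 7.32 CPM (5.98 to 8.87) with the vector and 4.24 CPM (3.22 to 5.48) with overexpression, 1.73-fold lower (1.24 to 2.43), which exceeds counting error and falls short of the 2-fold rule.

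APBA2, the adaptor, had a profile close to that of CACNA1H. NM_001130414.1 had 0 counts in ME-180 control cells, 501 in those labelled knockdown, 105 with the SiHa vector and 55 with overexpression. In ME-180 it was at least 180-fold higher against the floor of 3 counts (lower 95% limit 145.5). With overexpression in SiHa it was 1.84-fold lower (1.32 to 2.60), from 7.39 CPM (6.04 to 8.95) to 4.02 CPM (3.03 to 5.23). The log2(CPM + 1) differences in SiHa were -0.74 for APBA2, -0.67 for CACNA1H and -0.21 for KIF1A, so the member nearest to the 2-fold rule for higher genes from outside was KIF1A and the nearest from inside was CADPS2 at 1.69.

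**Figure D1:**
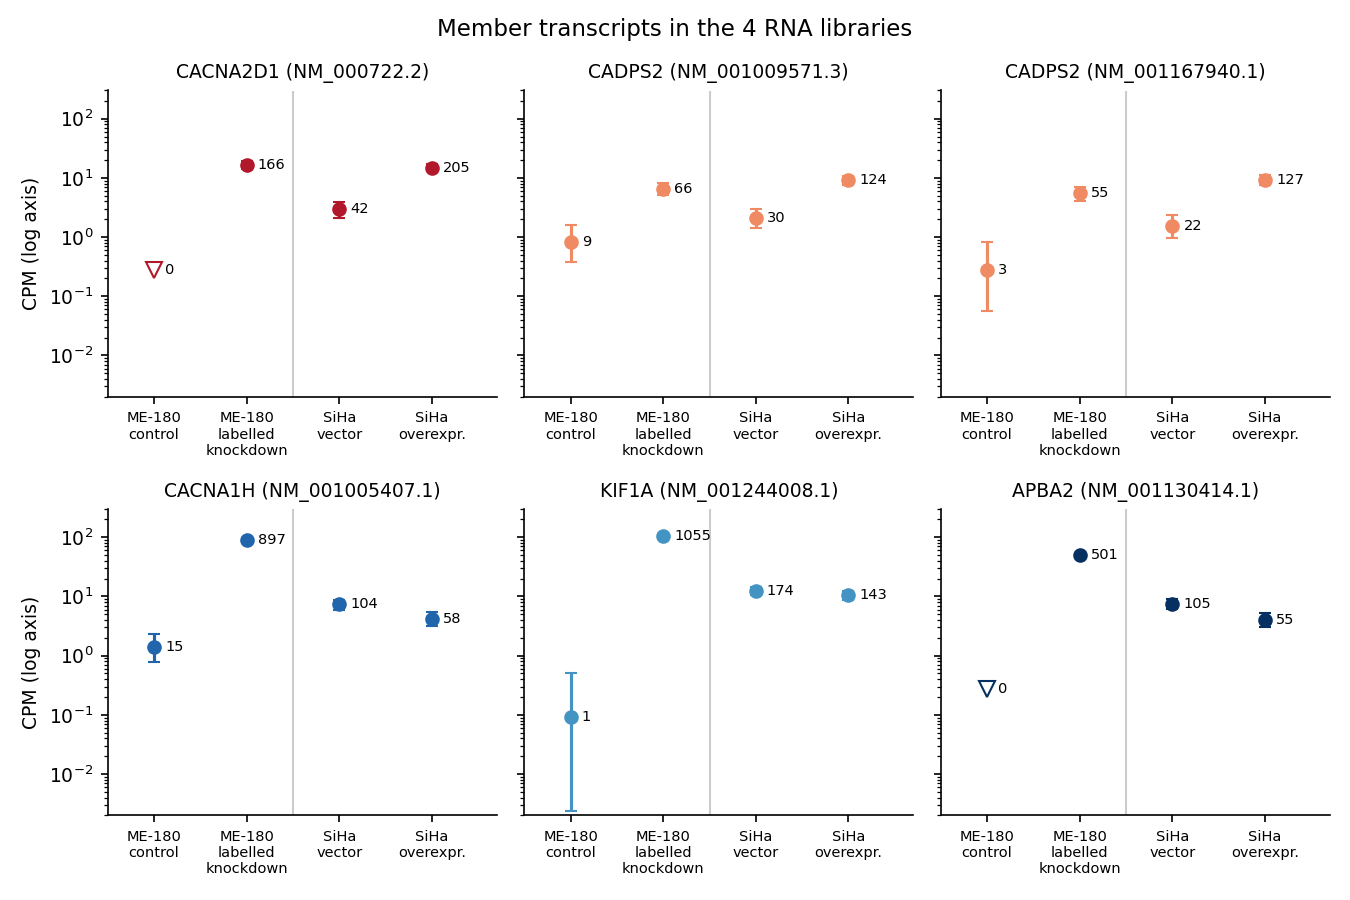
Level of each member transcript (y axis, counts per 1000000 of the table total, log axis) in the 4 RNA libraries (x axis). Filled points are 1 library each with 95% Poisson intervals, numbers are the counts, and open triangles mark 0 counts, drawn at the level of 3 counts. CACNA2D1 and CADPS2 are higher in the second library of both lines, and CACNA1H, KIF1A and APBA2 in that of ME-180 only. In SiHa CACNA1H and APBA2 are lower with overexpression, and the intervals of KIF1A overlap (174 and 143 counts).

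The authors' deposited table gave log2 fold changes in the same directions for all 6 rows in both lines. For ME-180 it gave 10.27 for CACNA2D1, 2.64 and 3.93 for the CADPS2 rows, 5.68 for CACNA1H, 9.67 for KIF1A and 11.87 for APBA2. By these values KIF1A was below APBA2 and CACNA2D1, unlike on the log2(CPM + 1) scale. The SiHa values in the authors' deposited table were 2.38 for CACNA2D1, 2.13 and 2.61 for CADPS2, -0.75 for CACNA1H, -0.19 for KIF1A and -0.84 for APBA2. A ratio against a control of 0 counts has no fixed size, and how that table treats zeros is not stated.

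Across the 4 libraries the ME-180 control had the lowest level for every member. Its place below the library labelled knockdown followed from how the members were chosen. For CADPS2 its interval (0.381 to 1.58 CPM) overlapped that of the SiHa vector (1.42 to 3.01 CPM). For CACNA1H, KIF1A and APBA2 the order from the highest was the ME-180 library labelled knockdown (89.3, 105 and 49.9 CPM), the SiHa vector, the SiHa overexpression library and the ME-180 control (1.39, 0.0926 and 0 CPM). Their SiHa pair was separated beyond its counting intervals for CACNA1H and APBA2 and not for KIF1A. For CACNA2D1 the library labelled knockdown (16.5 CPM) and the SiHa overexpression library (15.0 CPM) had overlapping intervals. CADPS2 was at 9.06 CPM (7.53 to 10.8) with overexpression and at 6.57 CPM (5.08 to 8.36) in the library labelled knockdown, which also overlap. These orders set levels from 2 tables side by side, each scaled to its own rows. Transcripts with a row in both tables carried 99.6% of the counts in the ME-180 control and 69.2% in the SiHa vector library. Scaled to those transcripts alone, CACNA2D1 was at 16.6 CPM in the library labelled knockdown and 21.7 CPM in the SiHa overexpression library, so the order of that pair turned, with intervals (14.2 to 19.3 and 18.8 to 24.9) that still overlap. CADPS2 on that scale was at 6.59 CPM (5.10 to 8.39) and 13.1 CPM (10.9 to 15.7), so its pair no longer overlapped. The CADPS2 intervals of the ME-180 control (0.383 to 1.59 CPM) and SiHa vector (2.06 to 4.36 CPM) no longer overlapped either. The library labelled knockdown was still highest for CACNA1H (89.6 CPM), KIF1A (105.4 CPM) and APBA2 (50.0 CPM).

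Genes called higher in both lines were few, and few genes were called in SiHa at all. Of 7627 genes with a row in both tables, 5 were called higher in both, which is 0.261% of the 1914 called higher in ME-180 and 12.5% of the 40 called higher in SiHa. Of those, 1849 and 32 had a row in the other table, so the 5 were 0.270% and 15.6% of the genes that could overlap. Over all genes, 0.572% of 6996 were higher in SiHa and 28.2% of 6783 were higher in ME-180. Besides CACNA2D1 and CADPS2 these were ASAH2B, CCDC173 and FCRLB, named here after their values were seen. ASAH2B had 5 and 20 counts in ME-180 and 1 and 19 in SiHa, CCDC173 had 18 and 70 and 8 and 32, and FCRLB had 11 and 34 and 11 and 52. All 3 thus rested on fewer than 100 counts in every library. Genes that were lower in ME-180 and higher in SiHa numbered 14, or 43.8% of those 32, beside 20.6% of all genes lower in ME-180. Genes higher in ME-180 and lower in SiHa numbered 20. They were 46.5% of the 43 called lower in SiHa with a row in ME-180, beside 28.2% of all genes higher in ME-180. The 20.6% and 28.2% are shares of the 6783 genes, a different set. Of the 7627 genes with a row in both tables, 1202 were called lower in ME-180 and 1849 higher. The count of 5 depended on the settings: it was 16 with a pseudocount of 0.1, 1 (CACNA2D1) with a pseudocount of 5 or a floor of 100 counts, and 3 with scaling by trimmed means.

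**Figure D2:**
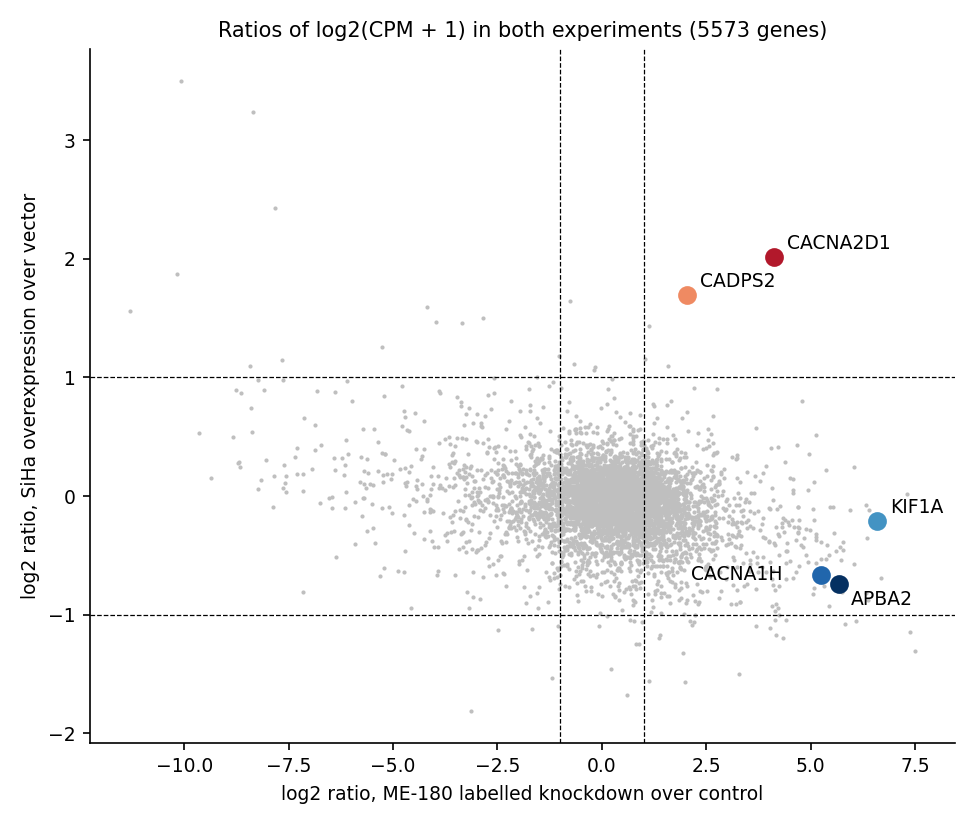
Log2 ratio of CPM + 1 in ME-180 (x axis, library labelled knockdown over control) against that in SiHa (y axis, overexpression over vector), 1 point per gene for the 5573 genes at 1 CPM or more in both experiments. Dashed lines mark 2-fold. CACNA2D1 (4.13, 2.01) and CADPS2 (2.05, 1.69) lie at the upper right with few other genes, and CACNA1H, KIF1A and APBA2 lie at the lower right inside the band of less than 2-fold in SiHa.

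The genes with the most similar pair of ratios were sought among 5087 genes with a row in both tables and at least 100 counts in a library, by the Euclidean distance over the 2 log2 ratios. Within this filter, CACNA2D1 and CADPS2 were farther from their nearest gene than the other 3 members were. Both had been picked as higher on these same 2 ratios, and the filter left out ASAH2B, CCDC173 and FCRLB. Nothing is therefore read from their larger distances. The nearest to CACNA2D1 were KIAA1644 at a distance of 1.37, SELENBP1 (1.504) and KCTD19 (1.54), each with a SiHa ratio below the 2-fold rule (0.80, 0.58 and 0.47). Nearest to CADPS2 were RHBDD1 (1.04), SLC44A5 (1.19) and LPXN (1.21). A floor of 1 CPM in both experiments in place of 100 counts was also used, chosen after seeing the data. Under it CCDC173 (0.76), HLA-DRB5 (0.80) and FCRLB (0.96) were nearer to CADPS2 than RHBDD1. The nearest gene to each of the other 4 members was the same. APBA2 had neighbours at 0.068 (TBX18), 0.11 (BEND4) and 0.21 (ITGA4). CACNA1H was nearest to VSTM4 (0.12), SALL1 (0.13) and NKX2-5 (0.16), and KIF1A to CBS (0.23), ARHGDIG (0.29) and ALDH1A2 (0.30). A distance over 2 ratios from 4 libraries describes these libraries and says nothing of shared function.

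Among the calcium channel relatives of CACNA2D1 and CACNA1H, 6 were called higher in the ME-180 library labelled knockdown, and 0 were called in SiHa. Of 26 voltage-gated calcium channel subunit genes, 21 had a row in ME-180 and 14 reached 1 CPM. Of these 14, 8 were called higher and 1 lower, with a median log2 ratio of 1.31 beside 0.28 over all 6783 genes. Over all genes 28.2% were higher and 20.6% lower. Without the members, 6 of 12 were higher and 1 lower (median 0.89). With a pseudocount of 5 or a floor of 100 counts, the list had 4 higher, members included, and 0 lower, and under trimmed means or DESeq2 size factors 2 were lower. In SiHa 19 had a row and 9 reached 1 CPM, of which CACNA2D1 was the 1 called higher and 0 were lower (median 0.03, beside -0.05 over all genes). Over all SiHa genes 0.572% were higher and 0.743% lower.

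Among the auxiliary subunits, CACNB4, a cytoplasmic beta subunit, had 2 counts in ME-180 control cells and 131 in those labelled knockdown, a ratio of 70.4 (19.1 to 588), and 14 and 14 counts in SiHa. A different transcript stood for CACNB4 in each line, and summing its rows moved its ME-180 log2 ratio from 3.57 to 5.05. CACNB1 and CACNB3, the beta subunits with the most counts in both ME-180 libraries, were not called in either line by the reported rule: CACNB1 had 268 and 179 counts in ME-180 and 948 and 785 in SiHa, and CACNB3 had 301 and 162, and 167 and 118. The ME-180 log2 ratio of CACNB3, -0.75, became -1.02 under trimmed means and -1.01 under DESeq2 size factors, which calls it lower. CACNG6, a gamma subunit, had 0 and 38 counts in ME-180, at least 13.6-fold higher (lower 95% limit 10.5), and 4 and 0 counts in SiHa. CACNA2D2, the alpha2delta relative with rows in both tables, had 37 and 143 counts in ME-180, a ratio of 4.16 (2.88 to 6.14), and 28 and 33 in SiHa, a ratio of 1.22 (0.717 to 2.10). The SiHa interval of CACNA2D2 lay below that of CACNA2D1, 3.62 to 7.24. CACNA2D3 had 27 and 32 counts in SiHa, and CACNA2D4 had 0 and 4 in ME-180.

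Of the other T-type pore genes, CACNA1I differed from CACNA1H in ME-180, and both were lower with overexpression in SiHa. CACNA1I had 29 and 28 counts in ME-180, a ratio of 1.04 (0.595 to 1.81) whose log2 value was -0.17 under trimmed-mean scaling, and 16 and 5 in SiHa, a ratio of 0.324 (0.0929 to 0.926) and a log2 value of -0.64 beside -0.67 for CACNA1H. CACNA1G had 3 and 3 counts in ME-180 and 1 and 4 in SiHa, too few for a comparison at this depth. The interval of CACNA1I in ME-180 lay below that of CACNA1H, 38.8 to 115.

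APBA1 and APBA2, which encode related adaptors of the same family, differed in opposite directions in both lines. APBA1 had 854 counts in ME-180 control cells and 68 in those labelled knockdown, 11.7-fold lower (9.12 to 15.2), where APBA2 went from 0 to 501. The SiHa counts of APBA1 were 6 (vector) and 20 (overexpression), a ratio of 3.46 (1.34 to 10.5), where APBA2 went from 105 to 55. APBA1 thus followed the TP63 counts in direction in both lines and APBA2 was opposite to them, with APBA1 at low counts in SiHa (log2 ratio 0.79) and short of the 2-fold rule there.

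**Figure D3:**
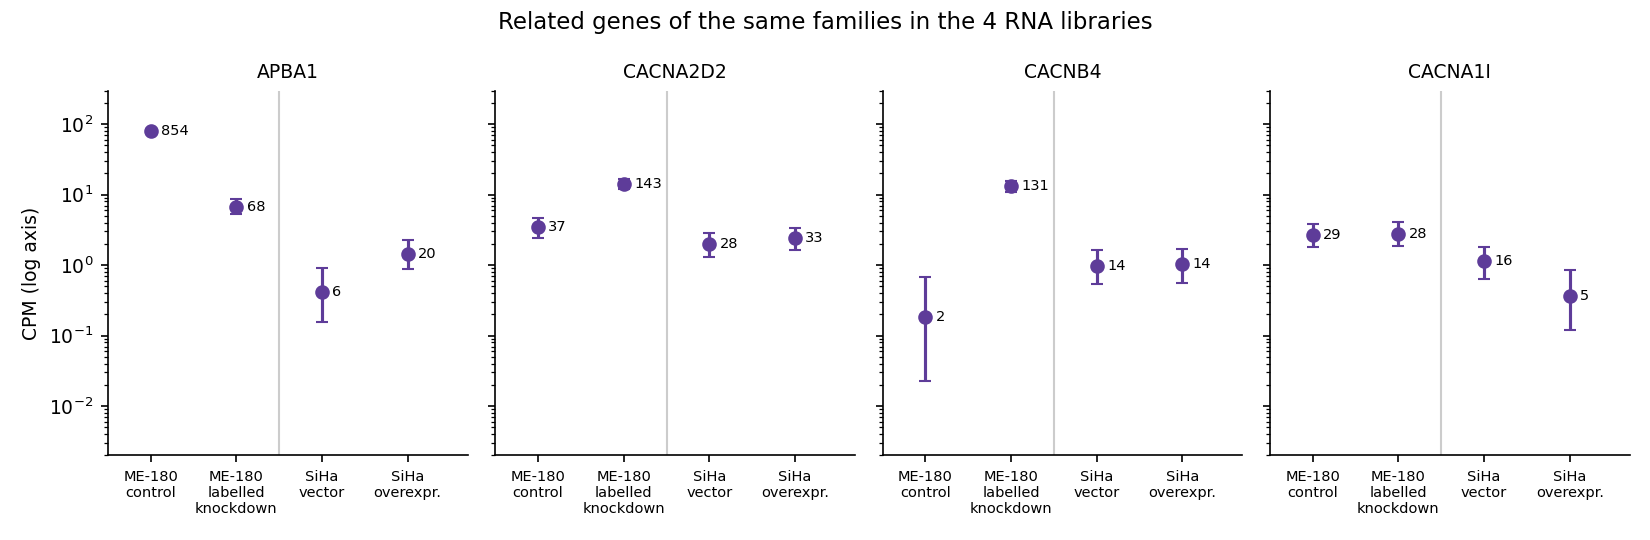
Level of 4 genes from the members' families (y axis, counts per 1000000 of the table total, log axis) in the 4 RNA libraries (x axis), for the transcript with the highest summed level in each table. Points are 1 library each with 95% Poisson intervals and the counts beside them. APBA1 is lower in the ME-180 library labelled knockdown (854 against 68 counts), CACNA2D2 and CACNB4 are higher there, and CACNA1I is level in ME-180 (29 and 28 counts).

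Genes of regulated exocytosis, the list that holds CADPS2, had no common direction. Of 46 genes, 20 had a row in ME-180 and 13 reached 1 CPM, with 3, CADPS2 included, called higher and 4 lower (median 0.29), beside 28.2% and 20.6% of all genes. Without CADPS2, 2 of 12 were higher (median 0.21), and 2 were lower in place of 4 with a pseudocount of 5 or a floor of 100 counts. SYT1, a calcium sensor of synaptic vesicles, had 3 and 122 counts in ME-180, a ratio of 43.7 (14.6 to 215), and UNC13A, another priming factor, had 7 and 101, a ratio of 15.5 (7.26 to 39.6). RIMS2, a scaffold of the release site, had 92 and 6 counts, 14.3-fold lower (6.31 to 39.9). In SiHa, 19 of 23 with a row reached 1 CPM, and CADPS2 and RIMS1 were the 2 called higher, with 0 lower (median -0.17), beside 0.572% and 0.743% of all genes. With a pseudocount of 5, 0 were called higher, and with a floor of 100 counts 1 was. RIMS1, also a release site scaffold, had 13 and 59 counts in SiHa, a ratio of 4.71 (2.55 to 9.36). Summing its rows moved that log2 ratio from 1.47 to 2.10. In ME-180 another transcript stood for RIMS1, with 0 and 2 counts, under the floor. The level of SYT1 in SiHa was 17 and 12 counts and that of UNC13A 19 and 10, with no call.

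Kinesin motor genes other than KIF1A were called in either direction in ME-180. Of 26 genes, 11 had a row there and 10 reached 1 CPM, with 4, KIF1A included, called higher and 1 lower (median 0.60), beside 28.2% and 20.6% of all genes. Without KIF1A, 3 of 9 were higher (median 0.36, beside 0.28 over all genes), and 2 were lower in place of 1 under trimmed means or DESeq2 size factors. KIF17, a motor of dendritic cargo, had 9 and 466 counts, a ratio of 55.7 (29.1 to 123), KIF21B had 2 and 63, a ratio of 33.9 (8.997 to 286), and the kinesin light chain KLC2 had 183 and 616, a ratio of 3.62 (3.06 to 4.29). KIF13A, of the same kinesin-3 family as KIF1A, was the lower gene, with 1299 and 374 counts. In SiHa all 13 with a row reached 1 CPM. Of these, 0 were called higher or lower (median -0.06), beside 0.572% and 0.743% of all genes. KIF17 had 63 and 56 counts there.

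Genes of the amyloid precursor protein and its adaptors, 13 of 23 with a row in ME-180 and 12 at 1 CPM, had 5 higher, APBA2 included, and 3 lower (median 0.49), beside 28.2% and 20.6% of all genes. Without APBA2, 4 of 11 were higher and the median was 0.16, below the 0.28 of all genes. NRXN3, a presynaptic adhesion protein, had 0 and 150 counts, at least 53.8-fold higher (lower 95% limit 43.2), and APBB1, another adaptor of the amyloid precursor protein, had 64 and 405, a ratio of 6.81 (5.22 to 9.003). APP itself had 3034 and 1817 counts and was not called. In SiHa 0 of 14 were called higher or lower (median -0.02), beside 0.572% and 0.743% of all genes. APP had 3248 and 3096 counts there.

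Calcium release, pump and exchanger genes and general neuronal markers had medians below 0 in ME-180, unlike the voltage-gated channel list. Of the first list, 16 of 28 had a row and 14 reached 1 CPM, with 4 higher and 6 lower (median -0.55), beside 28.2% and 20.6% of all genes. With a pseudocount of 5 these were 2 higher and 3 lower. RYR1, a calcium release channel of internal stores, had 1568 and 18 counts, 81.0-fold lower (51.1 to 137), MCU, the mitochondrial calcium uniporter, had 2356 and 512, RYR2 had 71 and 9, and the store channel ITPR1 had 18 and 147, a ratio of 8.78 (5.37 to 15.2). RYR1 was higher with overexpression in SiHa, 585 and 840 counts, a ratio of 1.49 (1.34 to 1.66), without reaching 2-fold. There 0 of 15 in the list were called higher or lower (median 0.05), beside 0.572% and 0.743% of all genes. Of 30 neuronal and neuroendocrine markers, 17 had a row in ME-180 and 12 reached 1 CPM, with 3 higher and 5 lower (median -0.80), beside 28.2% and 20.6% of all genes. All 5 lower calls were lost with a pseudocount of 5 and with a floor of 100 counts, and 5 were higher with a pseudocount of 0.1. NEFM, a neurofilament, had 12 and 353 counts, a ratio of 31.6 (17.9 to 61.8), and NCAM1, a neural adhesion molecule, had 2 and 32. PCSK1, a prohormone convertase, had 38 and 0 counts, at least 11.8-fold lower against the floor of 3 counts (lower 95% limit 9.12), and SNAP25, a release protein, 31 and 0, at least 9.61-fold lower (lower 95% limit 7.36). In SiHa 0 of 9 were called higher or lower (median -0.10), beside 0.572% and 0.743% of all genes. NEFM had 811 and 460 counts there, 0.589 of the vector level (0.524 to 0.661).

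**Figure D4:**
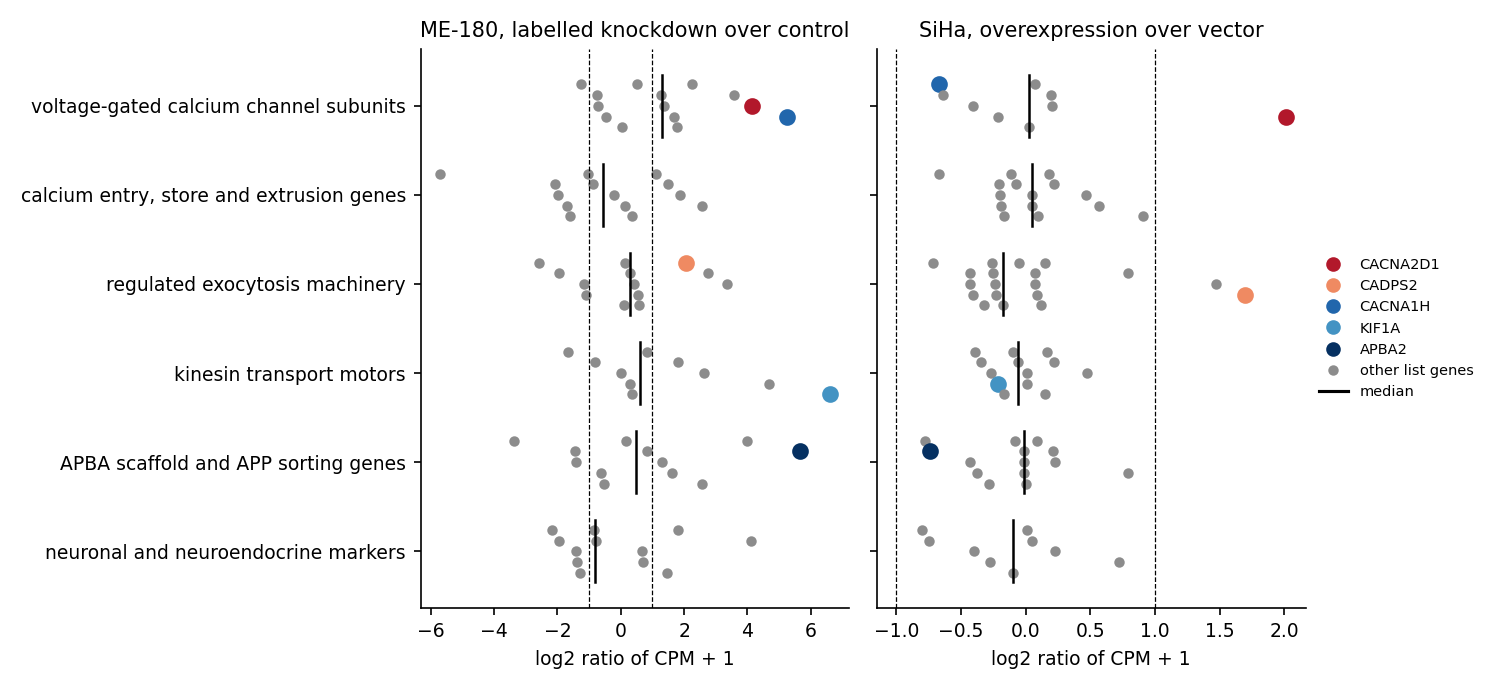
Log2 ratio of CPM + 1 (x axis) for the genes at 1 CPM or more of 6 gene lists (y axis), in ME-180 on the left and SiHa on the right, with a different x scale in each. Coloured points are the 5 members, grey points the other genes, black bars the list medians including members, and dashed lines 2-fold. In ME-180 the channel list has a median of 1.31 and the neuronal list of -0.80, and in SiHa CACNA2D1, CADPS2 and the grey point of RIMS1 are the genes past 2-fold.

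Sequence before the annotated starts was available for 3 of the 5 members, CACNA2D1, KIF1A and APBA2, from RefSeq on GRCh38.p14. CACNA2D1 had 1 window, KIF1A 3 and APBA2 5, each of 250 bases ending at the base before a start. The CACNA2D1 window (minus strand, chr7:82443957-82444206) is shown as that of the member higher in both lines, and 1 window each of KIF1A (minus strand, chr2:240820220-240820469) and APBA2 (plus strand, chr15:28921387-28921636), higher in ME-180 only by the calls, because they hold the matches described next. The KIF1A and APBA2 windows lie downstream of another start of the same gene, and whether they are exonic or intronic was not determined here. Capitals mark motif matches, and all are written 5′ to 3′ on the strand of the gene.
CACNA2D1: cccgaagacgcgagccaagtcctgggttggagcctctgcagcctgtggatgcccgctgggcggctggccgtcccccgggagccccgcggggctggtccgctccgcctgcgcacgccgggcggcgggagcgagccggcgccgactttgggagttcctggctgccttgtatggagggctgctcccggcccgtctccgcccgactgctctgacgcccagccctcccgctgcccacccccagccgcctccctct
KIF1A: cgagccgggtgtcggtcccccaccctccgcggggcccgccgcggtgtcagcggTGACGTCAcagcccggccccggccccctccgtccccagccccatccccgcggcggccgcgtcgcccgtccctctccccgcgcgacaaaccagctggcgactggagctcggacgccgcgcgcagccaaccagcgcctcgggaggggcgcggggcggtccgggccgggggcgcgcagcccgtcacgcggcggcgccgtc
APBA2: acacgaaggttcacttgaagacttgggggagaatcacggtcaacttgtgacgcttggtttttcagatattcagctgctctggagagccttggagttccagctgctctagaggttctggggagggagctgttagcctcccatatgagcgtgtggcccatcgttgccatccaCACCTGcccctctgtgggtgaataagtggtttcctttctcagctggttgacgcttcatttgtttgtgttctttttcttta

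None of the 9 windows held the consensus half-site of the p53 family, searched on both strands, which 5.57% of 35116 windows of the same length hold. The motif CACCTG, which ZEB repressors bind, was found once, 80 bases before 1 of the 5 APBA2 starts, and 17.5% of windows hold it on either strand. The cyclic AMP response element TGACGTCA, added to the search after the sequences were read, was found once, with its first base 197 bases before a KIF1A start, and 1.65% of windows hold it. The CACNA2D1 window had 75.6% G and C and 27 CpG pairs, beside medians of 58% and 11 over all windows. The KIF1A windows ranged from 49.6% to 82% and the APBA2 windows from 44% to 74.4%. A match is a description of these letters, and the table does not say which start the counted transcripts used. The p63 peak list was not used, since its positions are on another build and carry no gene names.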

How the data were processed

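RNA from 4 libraries was measured by sequencing, 1 per group, with groups taken from the sample titles. Per the submitters' processing notes, TopHat, Cufflinks and DESeq2 were used on hg19, with no roles named. How reads were counted, and whether by strand, is not given in the sources used here, and a read can count for several transcripts of a gene. Deposited by the authors were whole-number counts per RefSeq transcript, with a log2 fold change and a p-value and adjusted p-value for 1 library against 1. Those p-values are not printed, since such libraries allow no test of the conditions. A missing row says nothing of expression, and row totals were not taken as sequencing depths.

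Counts were scaled to the table total (CPM), and in each table the transcript with the highest CPM sum stood for its gene. That transcript differed between the lines for some named genes, among them CACNB4, CACNA1I, SYT1, RIMS1 and RYR1. Log2 ratios used a pseudocount of 1. Exact 95% intervals were Poisson for levels and conditional binomial for ratios (Python 3.11.15, SciPy 1.17.1), and cover counting error only. For folds, 0 counts were replaced by 3 in that library. Gene names turned into dates (32 ME-180 rows, 31 SiHa rows) were replaced by the name that RefSeq pairs with the transcript identifier, or by that identifier where none matched. The alternatives were pseudocounts of 0.1 and 5, scaling by trimmed means (edgeR 4.0.16) and by DESeq2 1.42.0 size factors, summed transcript rows, no floor, a floor of 100 counts, and, chosen after seeing the data, totals over transcripts in both tables and, for the nearest genes, a floor of 1 CPM. The rules were tried on simulated counts with counting error only, so the trial says nothing of variation between libraries. Changes were planted only in genes above a set mean level, which CADPS2 in ME-180 did not reach.

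The members and gene lists were chosen with earlier results of these data known. Named were all members, their paralogs with a row, up to 4 called genes per list and experiment, and the 3 nearest genes to each member, with CACNB1, CACNB3, KIF13A and APP added after their values were seen.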

Additional observations from a re-analysis of the deposited data

How the results depend on the processing

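No paired analysis was possible because each group is 1 library, and for the same reason no library could be left out. The directions of all 5 members in both lines were the same under every alternative run. With a pseudocount of 0.1 the median member ratio (log2) in ME-180 was 7.38 and with 5 it was 3.46, against 5.24 with 1. With a pseudocount of 5, 1 member was called higher in SiHa in place of 2, since CADPS2 was at 0.98. Genes called in ME-180 (3314 by the reported rule) were 2190 with a pseudocount of 5, 1272 higher and 918 lower, and 893 were lower with a floor of 100 counts. Genes called in SiHa (92) were 340 with a pseudocount of 0.1 (113 higher, 227 lower), 20 with 5 (14 and 6), 42 with a floor of 100 counts (20 and 22), and 154 with totals over transcripts in both tables, 94 of them lower. Genes higher in both lines (5) were 16 with a pseudocount of 0.1, 1 with 5 or a floor of 100 counts, and 3 with trimmed means or DESeq2 size factors. Trimmed means shifted the median gene in ME-180 by -0.28 and the share of higher genes among those called from 57.8% to 47.6%. The cause of the changes under scaling was not tested. The 68 single-gene, list and nearest-gene values were each compared with their value under the alternatives. Of these comparisons, 342 stayed within counting error or 1.5 times and 89 moved. The ME-180 log2 ratios of all 5 members moved with either other pseudocount, for APBA2 from 5.67 to 8.96 with 0.1 and to 3.46 with 5. Depth limits the members with few counts in a control: KIF1A (1 count) and CADPS2 (9 and 3 counts) in ME-180 have wide intervals. CACNA2D1 and APBA2 had 0 counts in the ME-180 control, so their ratios there have a lower limit only.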
